A study of Mus musculus with 10 samples.

Results

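The mitochondrial respiratory chain genes described here are 93 of the 27670 genes on a whole mouse genome array. A gene was taken when its name in the scanner files, or its current symbol reached through the sequence identifier in those files, begins with Nduf, Uqcr, Cox4 to Cox8 or Atp5, or is Sdha, Sdhb, Sdhc or Sdhd. The name in the files matched for 82 genes and the current symbol alone for 11. Symbols are those of the gene reference used, which lists the ATP synthase inhibitor as Atpif1 and not by its newer symbol, Atp5if1. The 93 genes hold 36 subunits of complex I, 7 assembly factors of complex I, 4 genes of complex II, 8 of complex III, 19 of complex IV and 17 of complex V. The other 2, Emc8 and Dmac2l, matched through the older names Cox4nb and Atp5s in the files and encode no structural subunit of the chain.

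Lung RNA was measured in 5 mice exposed to room air and 5 exposed to cigarette smoke, with 1 two-colour Agilent array per mouse. All were female BALB/c mice, an inbred strain, bought at 6 to 8 weeks of age. The smoke group received the smoke of 12 unfiltered 3R4F cigarettes, a reference cigarette for research, in each of 2 whole-body exposures of 50 minutes a day, on 5 days a week for 8 weeks. The room air group was kept for the same 8 weeks without smoke, and the whole lung was used, so every value is a mean over all cell types of the organ.

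The respiratory chain lies in the inner mitochondrial membrane. Complexes I and II pass electrons from NADH and succinate to coenzyme Q, complex III passes them to cytochrome c and complex IV to oxygen, and complex V, the ATP synthase, makes ATP from the proton gradient that complexes I, III and IV build. Several subunits of complex IV come in a form made in most tissues and a form made mainly in heart and skeletal muscle or another tissue, and in mice a sleeve of heart muscle surrounds the pulmonary veins inside the lung.

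The labels name a single dye, whereas every file holds a red and a green channel. Sftpc, Scgb1a1 and Ager, genes of lung epithelium, had a mean log2 signal over 10 arrays that was 6.39, 6.72 and 4.83 higher in red than in green. Ddx3y, Eif2s3y and Kdm5d, genes of the Y chromosome, were well above background in green on 10 of 10 arrays each and in red on 2, 0 and 1. Red was therefore read as the female lung and green as a reference that holds male RNA, and every level below is a log2 ratio of red over green. In the deposited table of processed values, all 286449 values equal, within 0.0001, those of a scanner file that carries the same number but the opposite group, and 286 equal those of the file with the same name. Groups follow the scanner files here, and if the table's names were the right ones, every difference would keep its size and change its sign. With the groups of the scanner files, 7 of 9 markers of macrophages, cells known to gather in lungs under smoke, were higher in smoke and 0 lower, beside 4.96% and 3.27% of all genes.

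Each of 5 slides carried the smoke array and the room air array of the same number, with smoke in place 1 and room air in place 2, so place and group cannot be told apart. The slides were scanned on 4 days. Deviations from the group mean correlated at 0.157 to 0.550 across probes between arrays of the same slide, while pairs from different slides had a median correlation of -0.124 and reached 0.205. These correlations are across probes, which are not independent replicates. Differences within slides and a fit with the slide as a block, the blocked fit, are therefore given beside the pooled values.

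The median red signal of the respiratory chain genes was 13.1 on the log2 scale, and probes of different genes are not compared by it, since each probe binds its target to its own degree. Of the genes on the array, 27669 were tested. Red was well above background on all 10 arrays for 91 of the 93 genes, was so on 1 smoke array for Cox7b2 and on 0 arrays for Cox8c, and was saturated for 0. Over all spots, 64.9% to 77.5% per array were well above background in red. With 5 arrays per group, precision is limited by their number.

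The chain as a whole lay close to its room air level after 8 weeks of smoke. Of the 93 genes, 2 passed limma's test at an adjusted p under 0.05, both lower with smoke, where 8.23% of all genes tested passed, 4.96% higher and 3.27% lower. Both encode muscle forms of complex IV subunits, Cox8b and Cox7a1. The median difference, smoke minus room air, was -0.017 on the log2 scale, with 44 genes above 0 and 49 below, and it was -0.0042 over all genes, with 13309 above and 14360 below. At an unadjusted p under 0.05 there were 14 genes, 5 higher and 9 lower, beside 20.0% of all genes. With the slide as a block 7 genes passed, 1 higher and 6 lower, where 13.8% of all genes did. For 1 gene, Atp5j, the smoke arrays all lay below the room air arrays. Groups were separate in this way for 7.89% of all genes, with smoke higher for 4.62% and lower for 3.27%.

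Large differences were few as well, while the middle of the range was not narrower than that of all genes. The median size of a difference was 0.071 for the chain, 0.066 for all genes and 0.113 for the genes well above background on all 10 arrays. A difference over 0.3 in size was seen for 3 of the 93 genes (3.23%), against 10.4% of all genes and 16.4% of the 17158 genes that were well above background on all 10 arrays. Of those 17158 genes 12.9% passed the test. The 10th and 90th percentiles of the differences were -0.16 and 0.12 for the respiratory chain, -0.19 and 0.19 for all genes, and -0.25 and 0.28 for the genes well above background. The probes of that last set had a median red signal of 9.23, so they were not matched to the chain in signal, and the part of the signal in the width of the differences was not tested.

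**Figure D1:**
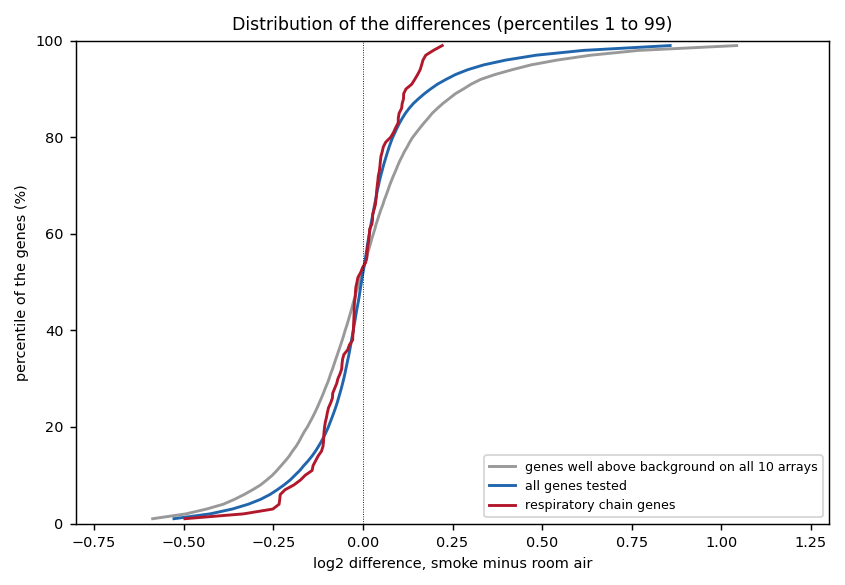
Percentiles 1 to 99 of the log2 difference, smoke minus room air, are plotted for the 93 respiratory chain genes, all 27669 genes tested and the 17158 genes well above background on all 10 arrays. The line of the respiratory chain crosses the 90th percentile at 0.12, where the lines of the other sets stand at 0.19 and 0.28.

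The median level of the 93 genes, relative to each gene's room air mean, was 0.05, 0.01, -0.07, 0.07 and -0.02 on room air arrays 1 to 5 and -0.05, 0.05, -0.04, -0.04 and 0.01 on smoke arrays 1 to 5. The groups overlapped over almost their whole range. Within slides 1 to 5 the median difference was -0.07, 0.03, 0.06, -0.13 and 0.02, so its sign turned from slide to slide.

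**Figure D2:**
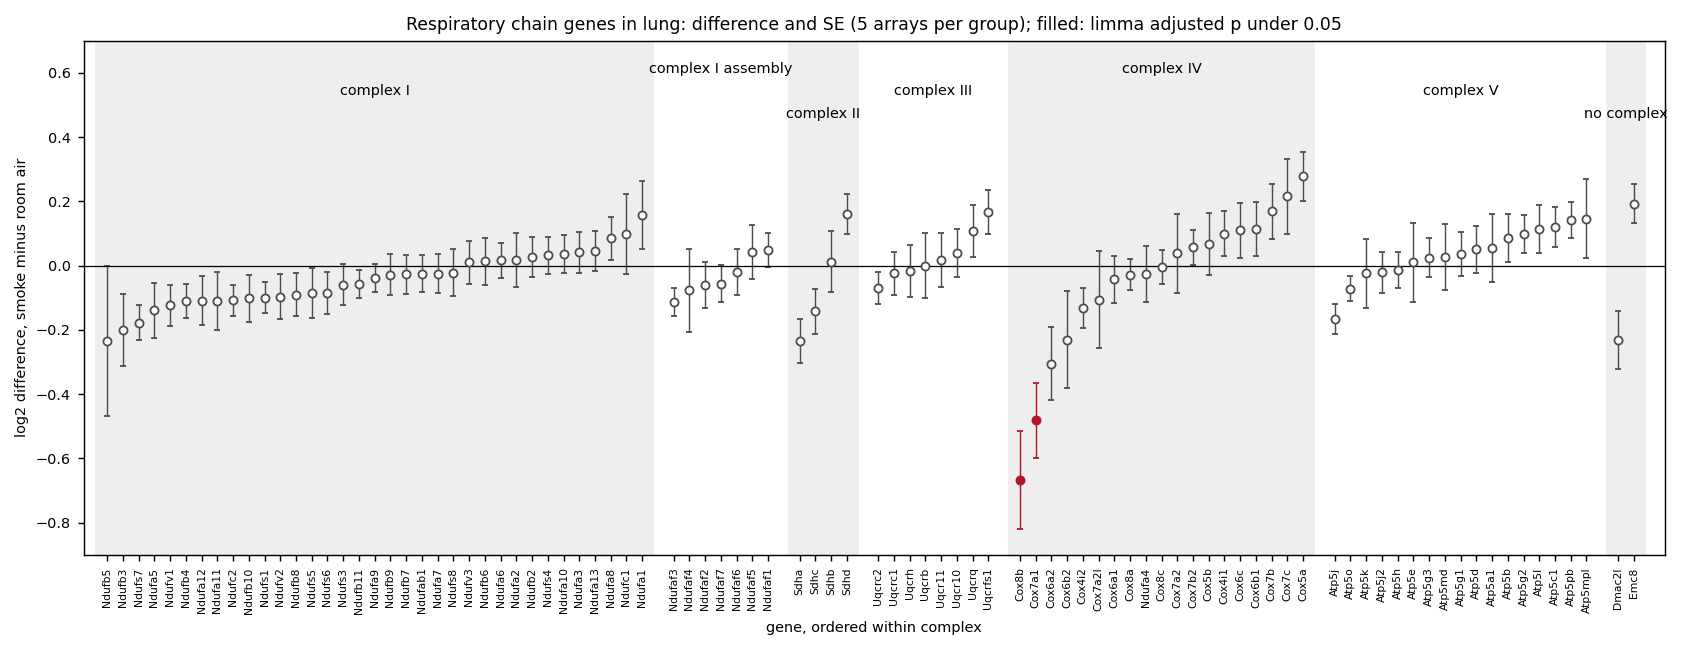
Each point is the log2 difference, smoke minus room air, of one respiratory chain gene, grouped by complex and with 1 gene of complex I not drawn, with bars of 1 SE from limma (n = 5 arrays per group). The filled red points are the genes past an adjusted p of 0.05, Cox8b at -0.67 and Cox7a1 at -0.48, and the highest point is Cox5a at 0.28.

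In complex I, which takes electrons from NADH, 0 of 36 subunits passed the limma test, where 8.23% of all genes did. An unadjusted p under 0.05 was seen for 2 subunits, both lower, beside 20.0% of all genes. With the slide as a block 0 passed, beside 13.8%. The median difference of the 36 subunits was -0.03, with 13 above 0 and 23 below. Among the 7 core subunits, which carry the flavin and the iron-sulfur clusters, 6 were below 0 and the median was -0.10, with medians within slides 1 to 5 of -0.16, -0.07, -0.11, -0.13 and -0.09. The 29 accessory subunits around that core had a median of -0.03, with 12 above 0 and 17 below.

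Ndufs7 carries the iron-sulfur cluster that hands electrons to coenzyme Q. Its log2 ratios were 0.20, 0.16, 0.04, 0.11 and 0.11 on room air arrays 1 to 5 and -0.06, 0.09, -0.04, -0.14 and -0.12 on smoke arrays 1 to 5. Smoke 2 reached into the room air range and the other smoke arrays lay below it, and smoke was lower on 5 of 5 slides. The difference was -0.18 ± 0.055 (SE, n = 5 per group; limma adjusted p = 0.0815, and 0.0569 with the slide as a block). Without smoke 2 it was -0.21 with an adjusted p of 0.0341. Ndufv1, the core subunit that binds NADH, was at -0.12, and Ndufs1, which carries iron-sulfur clusters, at -0.10.

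The lowest differences among all subunits of complex I were those of the accessory subunits Ndufb5, at -0.23 ± 0.23 (SE; limma adjusted p = 0.724), and Ndufb3, at -0.20 ± 0.11 (limma adjusted p = 0.403). Ndufb5 varied widely between arrays of both groups, from -0.87 to 0.17 in room air and from -1.05 to -0.06 in smoke. At the other end stood Ndufa1 at 0.16 and Ndufc1 at 0.10, both small accessory subunits. Of the 7 assembly factors Ndufaf1 to Ndufaf7, which help to build complex I, 0 passed the limma test and 1 had an unadjusted p under 0.05, Ndufaf3 at -0.11 (adjusted p = 0.189). The shares over all genes were 8.23% and 20.0%. The median of the 7 was -0.06, with 2 above 0 and 5 below.

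The 4 subunits of complex II, or succinate dehydrogenase, had 2 differences above 0 and 2 below, and 0 passed the limma test. Sdha, the flavoprotein that oxidises succinate, had log2 ratios of 0.21, 0.23, 0.37, 0.07 and 0.43 on room air arrays 1 to 5 and 0.01, -0.06, 0.03, 0.03 and 0.12 on smoke arrays 1 to 5. Smoke 5 stood above room air 4, the other smoke arrays lay below the whole room air group, and smoke was lower on 5 of 5 slides. The difference was -0.23 ± 0.068 (SE, n = 5 per group). Its adjusted p from limma was 0.0684, above the threshold, and fitting the slide as a block lowered it to 0.0291. Without room air 4 it was -0.28, with an adjusted p of 0.0216. The gene's other probes gave 0.07 (adjusted p = 0.888) and -0.27 (adjusted p = 0.293).

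Sdhb, the iron-sulfur subunit that passes the electrons on, differed by 0.01 (limma adjusted p = 0.975). Sdhc and Sdhd anchor the complex in the membrane and differed by -0.14 (adjusted p = 0.330, lower on 5 of 5 slides) and 0.16 (adjusted p = 0.179, higher on 5 of 5 slides; 0.0723 with the slide as a block). In complex II 0 of 4 genes passed the limma test, beside 8.23% of all genes. An unadjusted p under 0.05 was found for 2, 1 in each direction, beside 20.0%, and 1 passed with the block, beside 13.8%. The median was -0.06.

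In complex III, the link between coenzyme Q and cytochrome c, 0 of 8 genes passed the limma test, where 8.23% of all genes did. An unadjusted p under 0.05 was reached by 1 gene of the 8, beside 20.0% of all genes. That gene was Uqcrfs1, the Rieske iron-sulfur protein, at 0.17 (adjusted p = 0.215), higher on 5 of 5 slides. The core proteins Uqcrc1 and Uqcrc2 differed by -0.02 and -0.07 and the small subunit Uqcrq by 0.11. Cyc1, which the name rule does not match, is not among the 8. The median of the complex was 0.01, with 5 above 0 and 3 below.

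Complex IV, cytochrome c oxidase, held both genes that passed the test, and also the highest difference of all 93 genes. Of its 19 genes 2 fell and 0 rose by limma at an adjusted p under 0.05, beside 3.27% and 4.96% of all genes, and 4 had an unadjusted p under 0.05, 1 higher and 3 lower. Of all genes 20.0% had an unadjusted p under 0.05. In the blocked fit 3 of the 19 passed, all lower, beside 13.8% of all genes. The median was -0.005, with 9 above 0 and 10 below. The 7 forms made in most tissues had a median of 0.04, with 4 above 0. The 7 forms made in particular tissues had one of -0.23, with 1 above 0, and the values of these sets overlapped. Of the tissue forms 5 were well above background on all 10 arrays. Cox7b2, the 1 above 0, and Cox8c were not.

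Cox8b is the form of the smallest subunit made in heart, skeletal muscle and brown fat. It had log2 ratios of 4.23, 3.98, 3.95, 4.01 and 3.56 on room air arrays 1 to 5 and 3.25, 3.71, 3.22, 2.85 and 3.36 on smoke arrays 1 to 5. Smoke 2 stood above room air 5, and all other smoke arrays lay below the room air group. Cox8b fell by 0.67 on the log2 scale, or 1.59-fold, with an SE of 0.15 (limma adjusted p = 0.0218, and 0.0189 with the slide as a block), and was lower on 5 of 5 slides. Its call ended without room air 2 (adjusted p = 0.0509), room air 3 (0.0503), smoke 1 (0.0547) or smoke 3 (0.0531). In the red channel alone the difference was -0.71, with an adjusted p of 0.111, and over 20 alternatives it ran from -0.81 to -0.48, with adjusted p from 0.00268 to 0.553.

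Cox7a1, the heart and skeletal muscle form of subunit VIIa, had log2 ratios of 2.30, 2.12, 2.15, 2.11 and 1.74 on room air arrays 1 to 5 and 1.67, 1.75, 1.54, 1.27 and 1.79 on smoke arrays 1 to 5. Room air 5 lay within the smoke range, and room air 1 to 4 stood above all smoke arrays. Cox7a1 fell 1.40-fold, a log2 difference of -0.48 with an SE of 0.12 (limma adjusted p = 0.0289, and 0.0305 with the slide as a block), and was lower on 4 of 5 slides. Its call ended without room air 2 (adjusted p = 0.0652), 3 (0.0705) or 4 (0.0565) and without smoke 1 (0.0563), 3 (0.0688) or 4 (0.0522). In the red channel alone the difference was -0.52 with an adjusted p of 0.0661, and over 20 alternatives it ran from -0.59 to -0.38, with adjusted p from 0.00862 to 0.138.

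Room air 5 was the lowest room air array for both genes, and smoke 4 the lowest smoke array. Cox6a2, the heart and skeletal muscle form of subunit VIa, had log2 ratios of 0.90, 0.57, 0.69, 0.76 and 0.30 on room air arrays 1 to 5 and 0.20, 0.64, 0.29, 0.22 and 0.36 on smoke arrays 1 to 5. Arrays 2 and 5 of each group lay in the range of the other. The difference of -0.31 ± 0.11 (SE) did not pass the test (limma adjusted p = 0.165, and 0.157 in the blocked fit). Without room air 5 it was -0.39, with an adjusted p of 0.0443.

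Cox6b2, the testis form of subunit VIb, was lower on 5 of 5 slides, with a difference of -0.23 ± 0.15 (SE). Its limma adjusted p was 0.511, and 0.0337 with the slide as a block. Room air ranged from 1.88 to 2.58 and smoke from 1.77 to 2.50. Cox4i2, the lung form of subunit IV, differed by -0.13 ± 0.06 (adjusted p = 0.312) and was lower on 5 of 5 slides. By the scanner's own log ratio it was at -1.01 (adjusted p = 0.253), and over the other alternatives it lay between -0.45 and -0.11. The remaining forms of testis, Cox7b2 at 0.06 and Cox8c at -0.0050, were the genes not well above background.

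**Figure D3:**
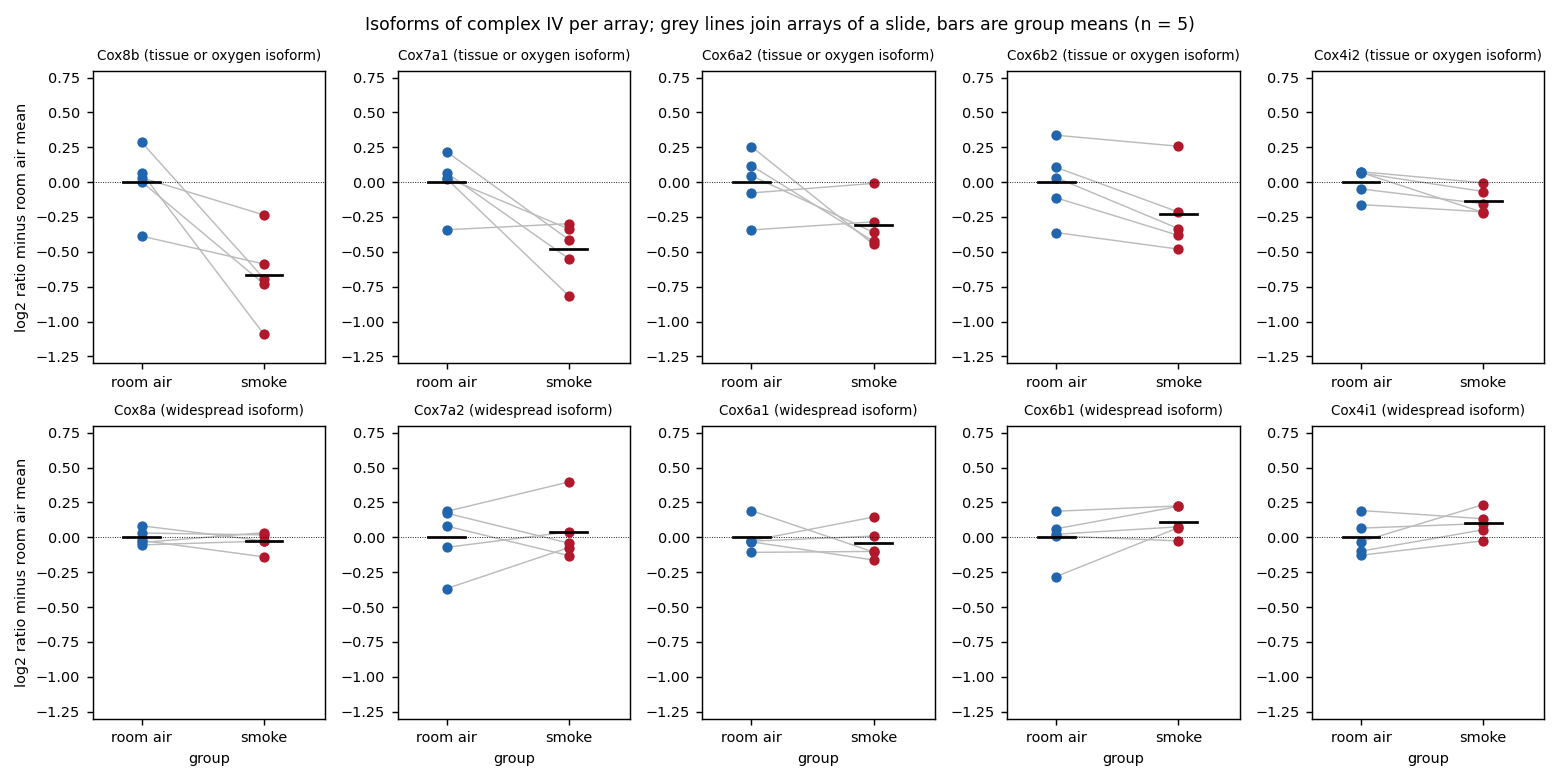
Log2 ratios of red over green, minus the gene's room air mean, are plotted per array for tissue forms of complex IV subunits and their widespread partners, with grey lines joining the arrays of 1 slide and bars at the group means (n = 5). Cox8b and Cox7a1 differ by -0.67 and -0.48, and their partners Cox8a and Cox7a2 by -0.03 and 0.04.

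The widespread partner of each form lay near its room air level or slightly above. Cox8a differed by -0.03, Cox7a2 by 0.04, Cox6a1 by -0.04, Cox6b1 by 0.11 and Cox4i1 by 0.10. Cox7b, partner of Cox7b2, differed by 0.17 (limma adjusted p = 0.344), and Ndufa4, a subunit of complex IV once counted to complex I, by -0.03. Among the 7 widespread forms 0 passed the limma test and 0 had an unadjusted p under 0.05, beside 8.23% and 20.0% of all genes. The difference between a tissue form and its partner was not tested.

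Cox5a, a subunit without a second form, had the highest difference. Its log2 ratios were -0.31, -0.57, -0.74, -0.51 and -0.50 on room air arrays 1 to 5 and -0.37, -0.12, -0.27, -0.26 and -0.23 on smoke arrays 1 to 5. Room air 1 stood above smoke 1, and the other room air arrays lay below all smoke arrays. The difference of 0.28 ± 0.077 (SE), 1.21-fold, missed the threshold (limma adjusted p = 0.0535, and 0.0596 with the slide as a block). It passed without room air 1 (0.33, adjusted p = 0.00952), among the probes well above background on at least 5 arrays (adjusted p = 0.0487) and in the red channel alone (0.33, adjusted p = 0.0494). The other subunits without such forms were Cox7c at 0.22 (adjusted p = 0.390), Cox6c at 0.11 and Cox5b at 0.07, and Cox7a2l, a relative of subunit VIIa that joins complexes III and IV, was at -0.11.

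In complex V, 0 of 17 genes passed the limma test, where 8.23% of all genes did. An unadjusted p under 0.05 was seen for 2, 1 in each direction, beside 20.0%, and the blocked fit called 1, beside 13.8%. The median difference was 0.04, with 12 above 0 and 5 below. Most of the genes above 0 were close to it, such as Atp5a1 at 0.05 and Atp5b at 0.09, the subunits of the catalytic head, Atp5c1 at 0.12, the rotating stalk, and Atp5l at 0.11. The highest were Atp5mpl, a small membrane protein of the complex, at 0.15 and Atp5pb, the main subunit of the outer stalk, at 0.14 (adjusted p = 0.186). Without room air 1, Atp5pb was at 0.18 with an adjusted p of 0.0462, and the lowest of its 3 probes was at -0.05.

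Atp5j, coupling factor 6 of the outer stalk, had log2 ratios of 0.41, 0.45, 0.34, 0.45 and 0.28 on room air arrays 1 to 5 and 0.24, 0.28, 0.18, 0.20 and 0.20 on smoke arrays 1 to 5. All smoke arrays lay below all room air arrays, with a narrow gap between room air 5 and smoke 2. The difference of -0.17 ± 0.047 (SE) did not pass limma's test (adjusted p = 0.0616). It passed once the slide was fitted as a block (0.0457), and also without room air 5 (0.0381). Atp5o, its neighbour in the stalk, differed by -0.07.

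The genes in no complex both passed in the blocked fit, where 13.8% of all genes did, and each has a second probe with the other sign. Emc8, part of a complex that inserts proteins in the endoplasmic reticulum, differed by 0.19 (limma adjusted p = 0.0947, 0.0185 in the blocked fit, and 0.0366 without room air 5), higher on 5 of 5 slides, and its second probe by -0.10 (adjusted p = 0.578). Dmac2l, which is linked to the ATP synthase as factor B, differed by -0.23 (adjusted p = 0.186, and 0.0267 with the block), lower on 5 of 5 slides, and its second probe by 0.05 (adjusted p = 0.853). In all, 24 of the 93 genes had several probes well above background on all arrays, for 11 of these the probes differed in sign, and for 0 did a second probe pass the limma test.

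**Figure D4:**
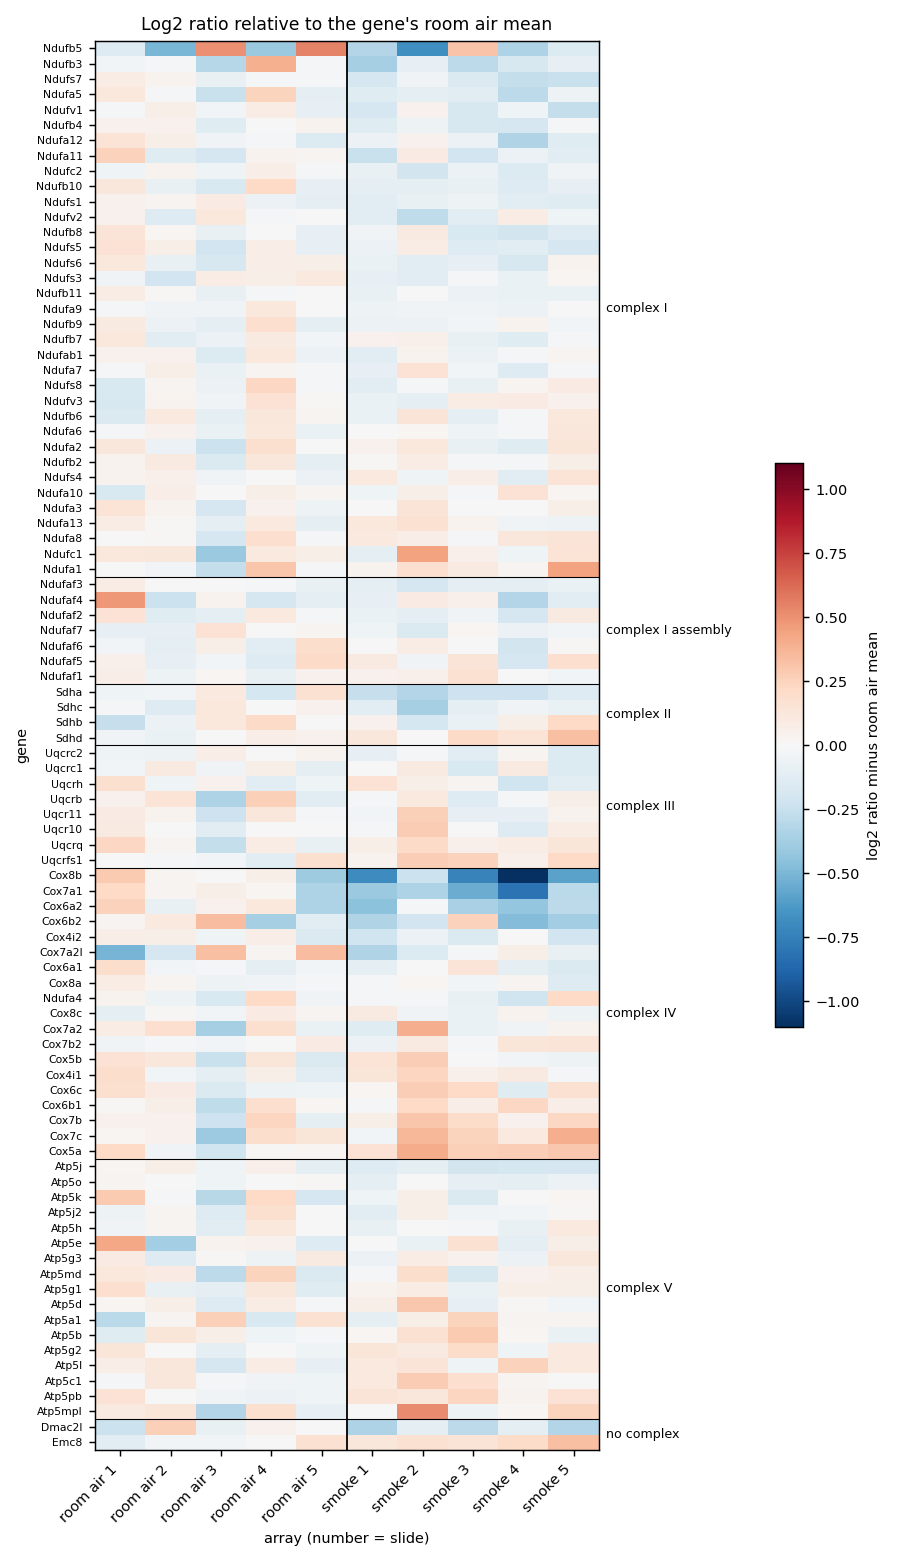
Each row is a respiratory chain gene, each column an array, and colour is the log2 ratio minus the gene's room air mean, with genes grouped by complex and 1 gene of complex I not drawn. The darkest blue cell is that of Cox8b on smoke 4, and the median over the 93 genes lies between -0.07 and 0.07 on every array.

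Markers of other cells moved between the same groups. Of 9 macrophage markers 7 rose, 2 did not pass (Siglecf at 0.25 and Ear1 at 0.01), and the list's median relative to room air was 0.06, 0.02, 0.07, -0.09 and -0.03 on room air arrays 1 to 5 and 1.28, 1.39, 1.42, 1.23 and 1.32 on smoke arrays 1 to 5. All 9 were well above background, and the brightest, Chil3, a secreted lectin of lung macrophages, rose by 2.12 on the log2 scale (limma adjusted p = 0.000138). Within slides 1 to 5 the list's median difference was 1.17, 1.41, 1.40, 1.37 and 1.20. The median of the respiratory chain stayed between -0.05 and 0.05 on those smoke arrays. Since whole lung was measured, fewer cells of a type and less RNA per cell cannot be told apart for any gene here.

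Heart muscle makes both forms that fell, and of its 13 markers 1 passed limma's test, beside 8.23% of all genes. The median of the list was 0.31, -0.0036, 0.20, -0.23 and -0.39 on room air arrays 1 to 5 and -0.29, -0.31, -0.29, -0.72 and -0.35 on smoke arrays 1 to 5. Room air 5 was the lowest room air array and smoke 4 the lowest smoke array, as for Cox8b and Cox7a1, but smoke 4 also had the lowest smoke median in 12 of the 13 lists of cell markers, all but brown fat. In those 12 lists, except T cell, heart muscle and fat, room air 4 of the same slide was the lowest room air array. Both arrays of slide 4 also had the highest shares of spots well above background in red, 76.7% and 77.5%. The median difference of the heart muscle list was -0.41, and -0.53, -0.22, -0.40, -0.50 and -0.0065 within slides 1 to 5. The gene that passed was Tnnt2, heart troponin T, at -0.41 (adjusted p = 0.0493). Its call held when room air 5 was left out and ended without each other array, with adjusted p up to 0.119. In the blocked fit 7 of the 13 passed, all lower, beside 13.8% of all genes. The list's median was -0.14 and 0 passed by the scanner's own log ratio, and -0.27 and 0 with ratios scaled between arrays. It was -0.71 with 8 lower in the red channel alone, and -0.76 with 3 lower in the processed red signal. Tnni3, heart troponin I, was at -0.65 (adjusted p = 0.0685, and 0.0209 with the block), whereas Myh6, the atrial heavy chain, was at -0.03 and the brightest, the atrial light chain Myl7, at -0.07 (adjusted p = 0.898). Ryr2, the calcium channel of heart muscle, was well above background on 2 of 10 arrays.

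Skeletal muscle makes both forms that fell, and brown fat makes Cox8b. Of 3 fat markers 1 fell, where 3.27% of all genes fell and 4.96% rose. The fat marker that fell was Cidec, a lipid droplet protein, at -1.02 (limma adjusted p = 0.0105), and Adipoq and Plin1 were both at -0.54 (adjusted p = 0.360 and 0.373). The median of the 3 was 0.68, -0.03, 0.46, -0.41 and -0.75 on room air arrays 1 to 5 and -0.55, -0.90, -0.27, -0.94 and -0.26 on smoke arrays 1 to 5, so the groups overlapped. The call of Cidec was lost by the scanner's own log ratio (median difference of the list -0.33) and with ratios scaled between arrays (-0.44). Of 6 skeletal muscle markers 1 fell, Tnnt3, fast troponin T, at -0.41 (adjusted p = 0.00148), with a median of -0.11 and the brightest, Myh4, at -0.36 (adjusted p = 0.491). In the brown fat list of 4, which holds Cox8b, the brightest gene, Cidea, rose by 0.82 on the log2 scale (adjusted p = 0.0484), a call that held when room air 1 was left out and ended without each other array (adjusted p up to 0.118). In the same list Ucp1 was well above background on 0 arrays and Elovl3 on 1. The part of these cells in the lower values of Cox8b, Cox7a1 and Cox6a2 was not tested.

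**Figure D5:**
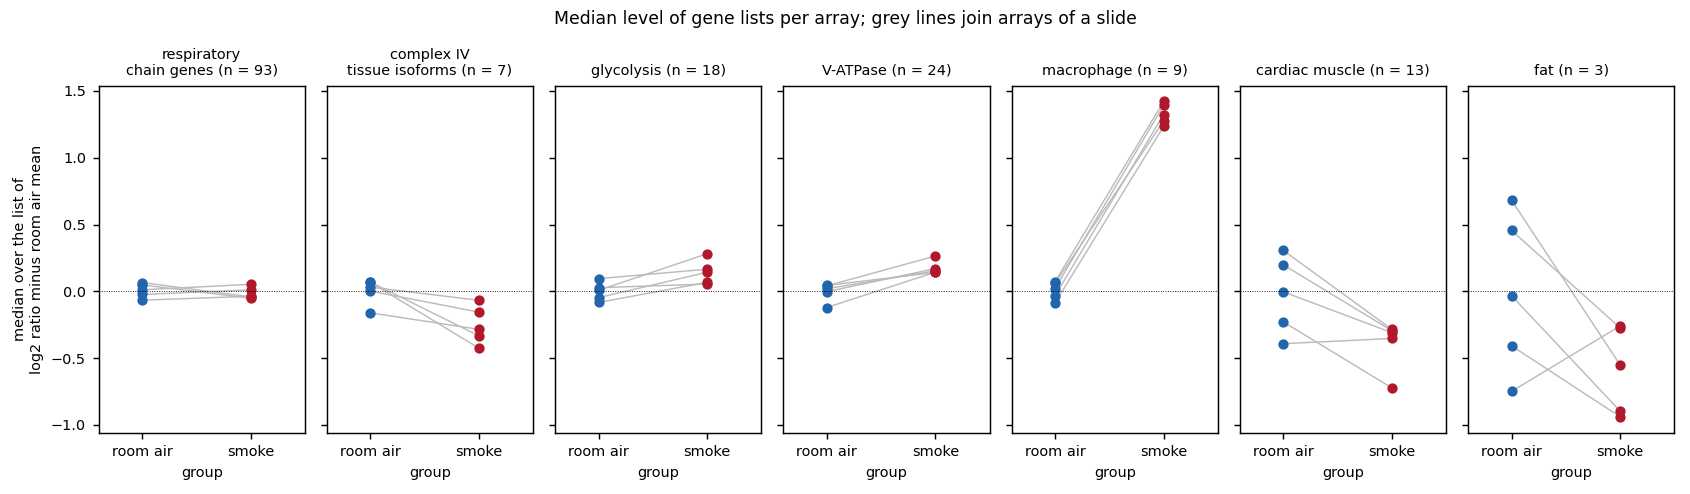
Median log2 ratio per array relative to each gene's room air mean, for the 93 respiratory chain genes, the 7 tissue forms of complex IV, glycolysis, V-ATPase and markers of macrophages, heart muscle and fat. The macrophage median lies between 1.23 and 1.42 on the smoke arrays, that of the respiratory chain between -0.05 and 0.05, and that of heart muscle between -0.72 and -0.29.

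Other cell types of the lung were covered by 8 further lists. By limma 8.23% of all genes passed, 4.96% higher and 3.27% lower. Alveolar type 1 markers had a median of -0.11 with 1 of 6 lower, the brightest, Cav1, at -0.64 (limma adjusted p = 0.0011), and endothelial markers one of -0.11 with 1 of 6 lower, Pecam1 at -0.41 (adjusted p = 0.0488), and the brightest, Cldn5, at -0.12. The call of Pecam1 ended without room air 2, 3 or 5 or smoke 1, 2, 4 or 5, with adjusted p up to 0.119. Of 7 neutrophil markers 1 rose, Mmp8 at 1.16 (adjusted p = 0.0210), with a median of 0.16 and the brightest, S100a9, at 0.16. The call of Mmp8 ended without room air 2, 3 or 5 or smoke 1, with adjusted p up to 0.0562. In the blocked fit 2 genes of each of these lists passed, beside 13.8% of all genes. By limma 0 of 7 alveolar type 2 markers (median 0.08; brightest Sftpc at -0.13), 0 of 4 club cell markers (0.08; Scgb1a1 at -0.20), 0 of 6 ciliated cell markers (0.11; Tppp3 at -0.07), 0 of 5 T cell markers (0.06; Cd3d at 0.35) and 0 of 4 B cell markers (0.12; Cd79b at 0.32) passed. At an unadjusted p under 0.05 these lists held 0, 1, 0, 0 and 0, beside 20.0% of all genes. In the blocked fit these lists held 1, 1, 0, 1 and 0 calls, beside 13.8% of all genes. The part of all these cells in the values of the respiratory chain was not tested.

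Atpif1, the inhibitor that stops the ATP synthase from running backwards, lies outside the name rule and rose. Its log2 ratios were -0.06, 0.05, -0.11, 0.01 and -0.02 on room air arrays 1 to 5 and 0.19, 0.41, 0.30, 0.15 and 0.29 on smoke arrays 1 to 5. All smoke arrays stood above all room air arrays, and smoke was higher on 5 of 5 slides. It rose 1.22-fold, a log2 difference of 0.29 with an SE of 0.057 (limma adjusted p = 0.00917, and 0.0089 with the slide as a block), and passed without each of the 10 arrays in turn. The call was lost in the red channel alone (0.25, adjusted p = 0.144), with median centring (0.25, adjusted p = 0.208), with the processed red signal (0.36, adjusted p = 0.228) and with the mean of both probes (0.21, adjusted p = 0.139), and its second probe was at 0.12 (adjusted p = 0.711).

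The lists of electron carriers, the citric acid cycle and coenzyme Q synthesis gave 1 call, with a share of 8.23% over all genes. The carriers hold Cyc1, cytochrome c1, a subunit of complex III that the name rule leaves out of the 93. Of 8 carriers, such as Cycs, the soluble cytochrome c, at -0.02 and Cyc1 at -0.07, 0 passed the limma test and 0 had an unadjusted p under 0.05, and the others were Etfb at 0.10, Etfa at -0.09, Dhodh at -0.05, Gpd2 at -0.04, Etfdh at -0.02 and Sqor at -0.02. Of 18 genes of the citric acid cycle and pyruvate dehydrogenase 0 passed the limma test and 0 had an unadjusted p under 0.05. Over all genes 20.0% had an unadjusted p under 0.05. Among 13 genes of coenzyme Q synthesis 1 fell, Coq2, which joins the side chain to the ring, at -0.31 ± 0.06 (SE; adjusted p = 0.0105), with all smoke arrays below room air. Of those 13 genes 3 were not well above background on every array. None of the 13 listed genes of mitochondrial DNA was measured on the array, so the subunits encoded there are absent from every count.

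Assembly factors, which build the complexes, gave 1 call in 4 lists, with a share of 8.23% over all genes. Of 16 assembly factors of complex I and 10 of complexes II and III, 0 passed the limma test, with 1 in each list at an unadjusted p under 0.05. Over all genes the share at that p was 20.0%. Of 22 assembly factors of complex IV 1 rose, Coa7, at 0.42 ± 0.10 (SE; adjusted p = 0.0244), with all smoke arrays above room air. Its call ended without room air 2, 3 or 5 or smoke 2, with adjusted p up to 0.0634. In the red channel alone Coa7 was at 0.15 (adjusted p = 0.825), and in the green reference at -0.25. Of 5 assembly factors of ATP synthase 0 passed the limma test and 2 had an unadjusted p under 0.05, Atpaf2 at 0.10 and Dmac2l, and the others were Tmem70 at 0.11, Atpsckmt at 0.03 and Atpaf1 at -0.0070.

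The regulators of mitochondrial number gave 1 call in 17 genes, with a share of 8.23% over all genes. Ppargc1b, a coactivator of mitochondrial genes, rose by 0.40 ± 0.08 on the log2 scale (SE; limma adjusted p = 0.00895), with all smoke arrays above room air. Its relative Ppargc1a was at -0.27 (adjusted p = 0.0649), the transcription factor Nrf1 at -0.17 (adjusted p = 0.0766) with all smoke arrays below room air, and Tfam, which packs and copies mitochondrial DNA, at 0.04. Of 78 genes of the mitochondrial ribosome 2 rose, Mrpl45 at 0.26 (adjusted p = 0.0155) and Mrpl16 at 0.23 (adjusted p = 0.0408), with 4.96% of all genes higher, and the median was 0.01. In the blocked fit 4 passed, 3 higher and 1 lower, and 13.8% of all genes. The call of Mrpl16 held without room air 1 or smoke 4 and ended without each other array, with adjusted p up to 0.106. Of 25 import genes 0 passed the limma test, 3 had an unadjusted p under 0.05 and 1 passed in the blocked fit. The shares over all genes were 8.23%, 20.0% and 13.8%.

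Carriers of the inner membrane included a pair that exchanges ADP for ATP. Slc25a4, the carrier of heart and skeletal muscle, had log2 ratios of 0.15, 0.22, 0.33, 0.27 and 0.12 on room air arrays 1 to 5 and -0.12, -0.13, 0.0036, -0.20 and -0.11 on smoke arrays 1 to 5. All smoke arrays lay below all room air arrays. Slc25a4 fell by 0.33 on the log2 scale (limma adjusted p = 0.00401), and Slc25a5, the carrier of most other cells, was at 0.23 (adjusted p = 0.0872, and 0.0487 with the slide as a block). Ucp2, a carrier that is abundant in macrophages, rose by 0.57 ± 0.12 on the log2 scale (SE; adjusted p = 0.0115). Of the 9 carriers and uncoupling proteins 1 rose and 1 fell, beside 4.96% and 3.27% of all genes.

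Glycolysis, which makes ATP outside mitochondria, held more calls. Of 18 glycolysis genes 4 rose and 2 fell, where 4.96% and 3.27% of all genes did, with a median of 0.14, and per array the median was -0.05, 0.03, 0.01, 0.10 and -0.08 in room air 1 to 5 and 0.14, 0.05, 0.28, 0.17 and 0.07 in smoke 1 to 5. Within slides 1 to 5 the median difference was 0.06, 0.11, 0.28, 0.10 and 0.20. Slc16a3, which exports lactate, rose by 0.74 on the log2 scale (limma adjusted p = 0.00015), Pgam1 by 0.38 (adjusted p = 0.000674), Hk3, a hexokinase of myeloid cells, by 0.41 (adjusted p = 0.0016) and Hk2 by 0.69 (adjusted p = 0.0254). The phosphofructokinases Pfkm and Pfkp fell, at -0.33 (adjusted p = 0.0246) and -0.24 (adjusted p = 0.0319). The call of Hk2 ended without room air 2, 3 or 5 or smoke 1, 3 or 5 (adjusted p up to 0.0711), and that of Pfkm without room air 2 or 3 or smoke 1, 2 or 5 (up to 0.0643). The call of Pfkp held without room air 1 or smoke 3 and ended without each other array (up to 0.0802).

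The V-ATPase is a proton pump of lysosomes built on the same rotary plan as the ATP synthase. Of its 24 genes 8 rose and 1 fell, where 4.96% and 3.27% of all genes did, with a median of 0.18, and the median within slides 1 to 5 was 0.17, 0.16, 0.21, 0.21 and 0.09. In complex V, with Atpif1 not counted, the counts were 0 and 0 of 17, as given above. Atp6v0d2, a subunit of macrophages and osteoclasts, had log2 ratios of 0.34, 0.37, 0.72, 0.16 and 0.37 on room air arrays 1 to 5 and 1.86, 1.58, 2.19, 1.45 and 1.67 on smoke arrays 1 to 5. It rose by 1.36 ± 0.14 (SE; limma adjusted p = 0.000148), with all smoke arrays above room air. Atp6v0c rose by 0.50 (adjusted p = 0.00428), Atp6v0d1 by 0.43 (adjusted p = 0.000597), Atp6v1b2 by 0.39 (adjusted p = 0.00465) and Atp6ap2 by 0.37 (adjusted p = 0.00386). Atp6v0a4, a form of transporting epithelia, fell by 0.46 on the log2 scale (adjusted p = 0.00229).

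With median centring in place of loess the V-ATPase held 1 higher and 1 lower gene and a median of 0.08, and glycolysis 1 higher and 0 lower and a median of 0.08. Over all genes the calls under this setting went from 1371 higher and 905 lower to 557 and 588. Ratios scaled between arrays left glycolysis 2 higher and 1 lower and a median of 0.05, with 1259 and 604 over all genes. The processed red signal left the V-ATPase 2 higher and 1 lower at a median of 0.18, with 874 and 482 over all genes, and the red channel alone 4 and 1 at a median of 0.12, with 1084 and 761. The difference between the lists was not tested, and the macrophage markers given above rose on the same arrays, a part that was not tested either. Over the 255 genes of the mitochondrial and energy lists outside the 93, 17 rose and 5 fell, beside 4.96% and 3.27% of all genes, with a median of 0.02. Of these 22 calls 15 held without each of the 10 arrays in turn, 12 higher and 3 lower. In the red channel alone 14 of the 22 passed. Those that did not included Coa7, Mrpl45 (adjusted p = 0.231), Mrpl16 (0.174), Pfkp (0.137), Atp6v0d1 (0.146) and Atp6v1b2 (0.0771).

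Promoters were compared as a feature that the name rule did not use. RefSeq promoters of the 250 bases before the start, on build GRCm38.p6, were at hand for 76 of the 93 genes, 81 promoters in all, since 5 genes have several. The median number of CG dinucleotides was 15 over these 81, against 6 over 32841 promoters, and the median GC content 57.2%, against 52.4%. The muscle forms that fell differ from this: Cox8b holds 1 CG dinucleotide and Cox7a1 holds 4, where their widespread partners Cox8a and Cox7a2 hold 11 and 14. The promoters of Cox8b at chr7:140900447-140900696 on the minus strand, Cox7a1 at chr7:30183921-30184170 on the plus strand, Cox8a at chr19:7217617-7217866 on the minus strand and Cox7a2 at chr9:79759854-79760103 on the minus strand are shown to set the muscle forms beside their partners, with matches to the motifs searched in capitals:
Cox8b: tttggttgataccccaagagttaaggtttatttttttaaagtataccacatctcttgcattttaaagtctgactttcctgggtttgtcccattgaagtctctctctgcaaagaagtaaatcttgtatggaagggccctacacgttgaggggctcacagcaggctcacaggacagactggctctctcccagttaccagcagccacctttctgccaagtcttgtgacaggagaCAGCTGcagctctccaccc
Cox7a1: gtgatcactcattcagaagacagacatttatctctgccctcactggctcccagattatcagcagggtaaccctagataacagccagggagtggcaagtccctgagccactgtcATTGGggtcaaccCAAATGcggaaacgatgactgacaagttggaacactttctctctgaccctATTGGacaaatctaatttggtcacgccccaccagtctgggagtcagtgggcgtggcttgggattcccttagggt
Cox8a: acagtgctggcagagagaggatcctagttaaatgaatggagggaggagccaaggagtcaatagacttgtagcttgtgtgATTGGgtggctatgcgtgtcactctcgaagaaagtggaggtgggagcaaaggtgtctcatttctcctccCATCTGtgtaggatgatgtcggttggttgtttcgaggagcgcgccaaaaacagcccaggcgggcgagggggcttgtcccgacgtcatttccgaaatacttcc
Cox7a2: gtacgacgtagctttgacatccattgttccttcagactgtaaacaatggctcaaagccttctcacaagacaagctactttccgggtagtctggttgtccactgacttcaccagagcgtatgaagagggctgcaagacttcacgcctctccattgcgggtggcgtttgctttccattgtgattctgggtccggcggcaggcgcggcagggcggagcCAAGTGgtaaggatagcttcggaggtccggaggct

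Motifs were searched by their letters on both strands. The site of NRF-1, a regulator of respiratory chain genes, searched as GCGCA and GCGC with any 1 base between them, was found in 15 of the 81 promoters (18.5%) and in 3.74% of all promoters. CCGGAAG, an ETS site, was in 13 (16.0%) and 6.91%, and CCAAT in 35 (43.2%) and 33.9%. The E-box CANNTG was in 51 (63.0%) and 66.2%. For motifs tied to smoke exposure, TNGCGTG, the core of the dioxin response element, was in 8 (9.88%) and 4.10%, and TGACNNNGC, an antioxidant response element, in 9 (11.1%) and 10.2%. The letters of the NRF-1, ETS and dioxin motifs hold CG. The 81 promoters had a median of 15 CG dinucleotides, against 6 over all promoters, and the promoters compared were not matched for this. The part of CG content in the shares was not tested. A match is a description and not a bound site.

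The Sdha and Atpif1 promoters, at chr13:74350241-74350490 and chr4:132535415-132535664, both on the minus strand, are shown as examples with the NRF-1 letters. Sdha holds 3 such matches, 1 of TNGCGTG and 1 of CCAAT, and Atpif1 holds 1 match of NRF-1 and 2 of the E-box, again in capitals:
Sdha: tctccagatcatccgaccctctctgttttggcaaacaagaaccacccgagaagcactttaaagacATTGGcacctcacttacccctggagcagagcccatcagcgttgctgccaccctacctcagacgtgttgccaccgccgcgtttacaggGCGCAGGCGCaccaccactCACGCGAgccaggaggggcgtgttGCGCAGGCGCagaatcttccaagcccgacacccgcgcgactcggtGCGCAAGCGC
Atpif1: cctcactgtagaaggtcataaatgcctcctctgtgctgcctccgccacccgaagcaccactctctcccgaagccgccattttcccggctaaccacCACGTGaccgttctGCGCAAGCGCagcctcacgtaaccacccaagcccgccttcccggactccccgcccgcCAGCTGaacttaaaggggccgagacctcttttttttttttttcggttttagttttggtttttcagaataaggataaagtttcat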

How the data were processed

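The deposited scanner files, 1 per array, list for each spot the pixel intensity in red, in green and in the local background, per the file headers from Agilent Feature Extraction 9.5.3.1; the submitters' processing notes name version 9.1. They also list the software's own red to green ratio, deposited as log10. A deposited table in log2 holds the mean of both channels and served only as an alternative.

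Mean intensities were background corrected with limma's normexp (offset 50), normalized by loess within arrays, and spots of a probe were averaged after outlier spots were set missing. No filter on dim probes was applied. The groups were then tested, two-sided, by limma 3.58.1 (lmFit, eBayes) under R 4.3.3. The Benjamini-Hochberg adjustment covered 41173 of 41174 probes, with a threshold of 0.05. The probe with the brightest red stands for its gene. The steps were tested on simulated data.

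Members and lists were chosen with earlier results of these data known. Named are members past the threshold, the 2 highest and 2 lowest per complex, tissue forms of complex IV with their partners, complex II, Atpif1, list genes past the threshold (at most 6 per list), all genes of lists of 8 or fewer, and the brightest marker of each cell type; other genes, such as further core subunits, were named after their values were seen. Alternatives changed the block, probe filter, background, normalization, channel, test, threshold and probe choice, and left out each array. An exact two-sided Wilcoxon test of 5 against 5 arrays cannot go below 0.00794.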

Additional observations from a re-analysis of the deposited data

Results flagged for a closer look

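In 17 of the 224 groups of 5 arrays tested, 1 array lay far from the rest. The measure is its gap to the nearest array as a share of the group's range, with a critical value of 0.71 that chance passes in about 1 of 20 groups.

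Among respiratory chain genes, given as log2 ratios, the highest room air array stood at -0.19 against -0.35 for the next in Atp5pb (0.722) and at 0.55 against 0.33 in Cox6a1 (0.721). The lowest room air array stood at -1.04 against -0.62 in Cox7c (0.711) and at -0.71 against -0.24 in Ndufc1 (0.876), and the lowest smoke array at -0.81 against -0.58 in Sdhc (0.730).

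Among the other genes, the lowest room air array stood at -0.82 against -0.53 in Atpaf1 (0.721) and at 0.03 against 0.34 in Etfdh (0.824). The highest smoke array stood at 0.54 against 0.33 in Atp6v0a4 (0.743) and at 0.80 against 0.62 in Sqor (0.803). The lowest smoke array stood at 0.68 against 0.84 in Atp6v1b2 (0.753) and at 4.33 against 4.92 in Tppp3 (0.858).

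Medians of lists, relative to room air, gave the rest. The V-ATPase median was lowest on a room air array at -0.12 against -0.0026 (0.718) and highest on a smoke array at 0.26 against 0.17 (0.766). On smoke 4 the medians of alveolar type 2 markers, at -0.51 against 0.10 (0.849), alveolar type 1 markers, at -0.51 against -0.09 (0.812), and heart muscle markers, at -0.72 against -0.35 (0.845), were the lowest of the group. The neutrophil median was highest on room air 1, at 1.25 against -0.19 (0.792).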

How the results depend on the processing

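Of 1558 values of 78 named genes under the alternatives run for them, 0 changed direction past the threshold, 112 lost the call and 17 gained it. Another 66 moved by more than the spread between arrays, and 1363 did not change in these ways. The 2 respiratory chain genes past the threshold became 7 with the slide as a block, 1 higher in place of 0 and 6 lower in place of 2. They became 1 in the red channel alone, a higher one, Cox5a, so that 0 were lower. Among the probes well above background on at least 5 arrays 3 passed, 1 higher, Cox5a, and 2 lower, Cox8b and Cox7a1. The count was 0, with 0 lower, by the scanner's own log ratio, with ratios scaled between arrays and with the processed red signal, and 0 by the exact Wilcoxon test, at an adjusted p under 0.01 and in the authors' table. Of all genes, 1985 passed by the scanner's own log ratio, 1863 with scaled ratios and 1356 with the processed red signal. The exact Wilcoxon test cannot go below 0.00794 before adjustment, so nothing is concluded from its count of 0. The count at 0.01 was settled by the main limma fit, where the 2 genes had adjusted p of 0.0218 and 0.0289. The authors' table holds the mean of both channels and no ratio, and it was used with its own group names. Nothing is concluded from its count either. Leaving out each array gave 0 to 5 genes, 0 to 2 higher and 0 to 4 lower: 0 without room air 2 or 3 or smoke 1 or 3, 1 without smoke 4 and 5 without room air 5. Of all genes, 2276 passed with every array, and 1781 and 1708 without room air 2 and 3, 1679 and 1815 without smoke 1 and 3, 1882 without smoke 4 and 1943 without room air 5.

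The members' median of -0.017 was -0.068 with median centring and 0.034 with the processed red signal, where the medians of complexes III and IV were 0.10 and 0.13; that of complex I was -0.10 with median centring. For the 22 genes of the other lists past the threshold, tried after seeing the data, the count was 4 with median centring and 8 with the processed red signal. With the slide as a block, 29 of all 255 genes of those lists outside the respiratory chain genes passed, a count not limited to the 22, beside 13.8% of all genes. The cause was not tested. A red signal near background limits Cox7b2 and Cox8c.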
